A study of Mus musculus with 36 samples.

Results

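The small leucine-rich proteoglycans were followed through 4 kinds of mouse cells that all lacked the histone methyltransferase MLL3 and either had lost or kept its relative MLL4. The 9 genes were chosen by name from the family: biglycan (Bgn), decorin (Dcn), asporin (Aspn), lumican (Lum), fibromodulin (Fmod), Prelp, osteomodulin (Omd), osteoglycin (Ogn) and podocan (Podn). The choice was made with earlier results of these data known. The members are 9 of the 24284 genes with an FPKM value (fragments or reads scaled to gene length and depth). All 9 were found both there and among the RefSeq transcripts with read counts.

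Small leucine-rich proteoglycans are secreted proteins built of repeated leucine-rich motifs, most of which carry glycosaminoglycan chains. They bind collagen fibrils and set fibril diameter and spacing, and several bind growth factors such as TGF-beta or act on cell surface receptors. Fibroblasts and other connective tissue cells are their usual source. Class I holds Bgn, Dcn and Aspn, class II holds Lum, Fmod, Prelp and Omd, and Ogn and Podn belong to classes III and V.

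RNA was measured by sequencing of poly(A) RNA in 12 of the 36 samples of the series. The other 24 samples (chromatin and input) are not analysed here. DKO cells were MLL3-/-;MLL4-/- and f/f cells were MLL3-/-;MLL4flox/flox, so the controls lack MLL3 as well and no group is wild type. The groups were fibroblasts that had received lentiviruses carrying Oct4, Sox, Klf4 and c-Myc 20 days earlier (DKO and f/f, 1 library each), immortalised embryonic fibroblasts (MEF; DKO and f/f, 1 library each), embryoid bodies after 4 days of suspension culture without LIF (DKO and f/f, 2 libraries each) and embryonic stem cells kept with LIF on irradiated fibroblast feeders (ESC; DKO and f/f, 2 libraries each). Whether a genotype rests on more than 1 line, and the ages and strains behind these RNA samples, are not given in the labels used here.

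Depth behind the deposited values lay between 11366199 and 38264157 reads a library. Kmt2d, the gene of MLL4, read 24.8 FPKM in the day-20 library labelled DKO against 12.9 FPKM in f/f. Among fibroblasts it read 23.5 FPKM in the library labelled DKO against 14.4 FPKM in f/f. A value over the whole gene does not isolate the deleted part and so checks neither label. In replicate 2 it read 10.1 FPKM in DKO and 15.4 FPKM in f/f bodies, and 10.7 FPKM in DKO and 18.7 FPKM in f/f ESC. In what follows DKO means the libraries labelled DKO, and for fibroblasts and day-20 cells each direction rests on those labels. On the 11 genes of a fibroblast list, MEF summed to 3101 FPKM in DKO and 3883 FPKM in f/f, against 308 FPKM in DKO and 353 FPKM in f/f ESC of replicate 2. The number of these genes at 1 FPKM or more does not separate the cells, being 10 in DKO MEF, 11 in f/f MEF and 11 in both ESC libraries. Day-20 cells summed to 9757 FPKM in DKO and 13579.8 FPKM in f/f on the same list. On 8 pluripotency genes they summed to 10.5 FPKM in DKO and 40.0 FPKM in f/f. ESC of replicate 2 summed to 3058 FPKM in DKO and 4246 FPKM in f/f on these genes. Nanog made up most of the day-20 DKO sum and went the other way, at 9.68 FPKM in DKO and 5.49 FPKM in f/f. Pou5f1 (Oct4) read 0.118 FPKM in DKO and 19.8 FPKM in f/f at day 20, and Sox2 read 0.243 FPKM and 9.36 FPKM. Whether such reads came from the lentiviruses was not tested.

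The 9 genes lie at 5 places in the mouse genome. Dcn and Lum are neighbours on chromosome 10, followed by the family members Kera and Epyc. Aspn, Omd and Ogn stand side by side on chromosome 13 after Ecm2. Prelp and Fmod adjoin on chromosome 1 next to Optc, Podn lies on chromosome 4 and Bgn on the X chromosome. Omd, Ogn and Aspn lie within the span of Cenpp, a kinetochore gene, and whether counting used the strand is not stated in the labels. Reads of these 3 genes and of Cenpp may not be fully separated.

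Promoter windows are shown for Ogn with Aspn and for Prelp with Podn, because each pair shares a pattern of levels across the libraries that the results turn on. Each window runs from 250 bases before the start site to 50 bases after it in RefSeq on build GRCm38.p6, 5′ to 3′ on the gene's strand. RefSeq windows were found for 7 of the 9 genes. Capitals mark a match, on either strand, to TATAAA (bound by TBP), TGANTCA (bound by AP-1), GGAATG (bound by TEAD factors), TGTGGT (bound by RUNX factors) or GGGCGG (bound by SP1). The Ogn window is chr13:49607765-49608064 on the plus strand, Aspn is chr13:49544193-49544492 on the plus strand, Prelp is chr1:133921352-133921651 on the minus strand and the first of the Podn starts is chr4:108031905-108032204 on the minus strand.
Ogn: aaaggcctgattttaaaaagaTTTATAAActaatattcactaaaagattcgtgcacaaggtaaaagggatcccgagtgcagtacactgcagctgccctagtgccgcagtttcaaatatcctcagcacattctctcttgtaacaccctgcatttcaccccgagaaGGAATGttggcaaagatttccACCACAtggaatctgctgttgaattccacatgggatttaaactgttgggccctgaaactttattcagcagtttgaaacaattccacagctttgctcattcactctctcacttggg
Aspn: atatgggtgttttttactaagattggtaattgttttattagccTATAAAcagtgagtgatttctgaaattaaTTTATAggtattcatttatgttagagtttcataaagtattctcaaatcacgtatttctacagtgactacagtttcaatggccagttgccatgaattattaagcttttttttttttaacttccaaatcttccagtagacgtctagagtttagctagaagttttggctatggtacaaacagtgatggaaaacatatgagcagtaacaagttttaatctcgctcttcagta
Prelp: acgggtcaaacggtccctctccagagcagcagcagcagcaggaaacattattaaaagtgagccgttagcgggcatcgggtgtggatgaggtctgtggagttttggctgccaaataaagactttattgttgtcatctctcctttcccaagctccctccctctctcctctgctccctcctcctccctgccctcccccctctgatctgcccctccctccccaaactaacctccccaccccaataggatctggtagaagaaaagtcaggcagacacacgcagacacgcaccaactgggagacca
Podn: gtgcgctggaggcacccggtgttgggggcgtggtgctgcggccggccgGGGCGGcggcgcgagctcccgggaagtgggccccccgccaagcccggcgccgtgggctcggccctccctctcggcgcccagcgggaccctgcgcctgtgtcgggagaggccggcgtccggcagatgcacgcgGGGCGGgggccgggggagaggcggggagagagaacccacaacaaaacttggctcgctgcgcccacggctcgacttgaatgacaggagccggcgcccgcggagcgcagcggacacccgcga

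The Ogn and Aspn windows held 4 and 3 CpG pairs, and each held 2 matches to TATAAA, which in Ogn overlap each other. Ogn also held 1 match each to GGAATG and TGTGGT. The Podn window shown held 41 CpG pairs and 2 matches to GGGCGG, and Prelp held 7 CpG pairs and none of these 5 motifs. The window of the other Podn start, not shown, held 7 CpG pairs and none of the 5 motifs. Which Podn start was in use was not tested. The median over 32851 promoter windows was 7.0 CpG pairs. TATAAA was present in 13.6% of them, TGANTCA in 7.81%, GGAATG in 14.7%, TGTGGT in 16.8% and GGGCGG in 35.7%. The E-box CANNTG, left in lower case, was present in 72.3%. It matched 4 times in Ogn, 2 times in Aspn and 1 time each in Prelp and the Podn window shown. These matches describe letters in the windows and are not evidence of binding.

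The first comparison asked how day-20 DKO cells differed from day-20 f/f cells. Of the 9 genes, 7 were more than 2-fold lower in DKO and none was more than 2-fold higher on log2(FPKM + 1). Of the 12281 genes compared, 10.4% were lower and 8.26% were higher. The 9 genes were chosen with earlier results of these data known, so this contrast is not a test of the family. Of 4 further family genes compared, none passed 2-fold in either direction. The median difference of the 9 genes was -3.48 log2 units, against 0.04 over all genes. Each group had 1 library, so these differences have no replicate check and no test. The intervals given with ratios are 95% intervals of read counting, exact for the 2 libraries compared, and do not cover variation between cultures.

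Among class I genes the 3 members parted. Bgn, the most abundant of the 9, read 2818 FPKM in DKO and 1975 FPKM in f/f day-20 cells, a ratio of 1.43 (1.42 to 1.44). Dcn, which binds collagen and TGF-beta, read 27.5 FPKM in DKO and 90.0 FPKM in f/f, 3.27-fold lower (3.08 to 3.48). Aspn, a regulator of TGF-beta in cartilage, read 2.36 FPKM in DKO (130 reads) and 69.1 FPKM in f/f (4062 reads), 29.2-fold lower (24.6 to 35.1). Bgn was thus high in both day-20 libraries while Aspn and, less so, Dcn were lower in DKO.

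Class II genes were lower in DKO with the exception of Omd. Prelp, which anchors basement membrane to connective tissue, read 0.901 FPKM in DKO (76 reads) and 128 FPKM in f/f (11511 reads), 142-fold lower (113 to 180.1). Lum, the keratan sulfate proteoglycan known from the transparency of the cornea, read 1.75 FPKM in DKO and 168 FPKM in f/f, 96.2-fold lower (77.7 to 121). Fmod, which shares a collagen binding site with Lum, read 1.23 FPKM in DKO and 22.7 FPKM in f/f, 18.5-fold lower (14.8 to 23.4). These 3 genes each stood below 2 FPKM in DKO cells at day 20. Omd, described in bone, read 32.2 FPKM in DKO and 25.2 FPKM in f/f, a ratio of 1.28 (1.18 to 1.38).

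The remaining members were both lower in DKO. Ogn, of class III, read 14.4 FPKM in DKO and 170.2 FPKM in f/f, 11.9-fold lower (11.1 to 12.7). Podn, of class V, read 5.08 FPKM in DKO and 76.1 FPKM in f/f, 15.0-fold lower (13.6 to 16.6). Summed without Bgn, the family came to 85.4 FPKM in DKO and 749 FPKM in f/f, whereas with Bgn the sum was 2904 FPKM in DKO and 2724 FPKM in f/f. Without Bgn and Omd, whose FPKM is in doubt as described further on, it was 53.2 FPKM in DKO and 724 FPKM in f/f. Bgn made up 97.1% of the family's summed FPKM in DKO and 72.5% in f/f at day 20.

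**Figure D1:**
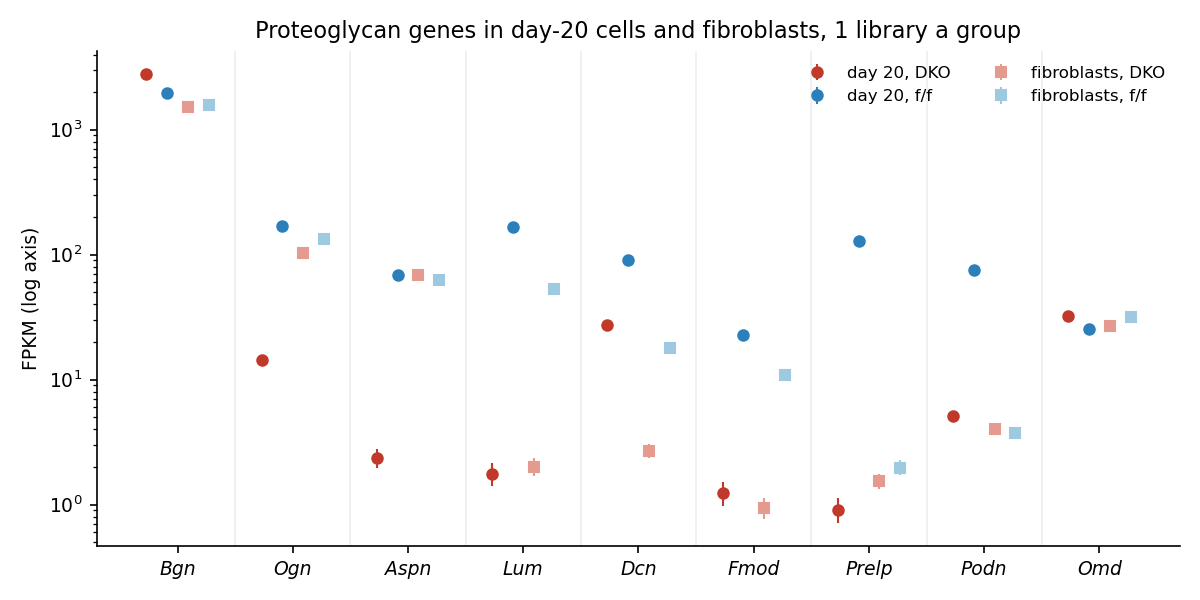
FPKM of the 9 genes (log axis) in day-20 cells and fibroblasts, DKO left of f/f, 1 library each, with bars for 95% counting intervals that are mostly smaller than the points. Lum reads 1.75 FPKM in DKO and 168 FPKM in f/f cells at day 20, and Bgn lies between 1512 FPKM and 2818 FPKM in all 4 libraries.

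Markers of other cells moved with this comparison. The 11 fibroblast markers had a median log2 difference of -1.42, and 6 of them were more than 2-fold lower in DKO. Thy1, a fibroblast surface glycoprotein, read 1.08 FPKM in DKO and 119.7 FPKM in f/f at day 20. Col1a2 and Col3a1 of the same list were higher in DKO, within 2-fold. Col1a2 read 3894 FPKM in DKO and 2663 FPKM in f/f, and Col3a1 read 4606 FPKM and 3851 FPKM. Epithelial markers (7 genes) summed to 0.273 FPKM in DKO, with Cdh1, Epcam, Esrp1, Krt18 and Krt5 at 0, and to 97.2 FPKM in f/f, where none was at 0. Smooth muscle and pericyte markers (6 genes) summed to 1264 FPKM in DKO and 406 FPKM in f/f, mostly from Acta2 and Tagln. They did not move together: 3 were more than 2-fold higher in DKO and 1 was lower. The lower one was Cspg4, at 1.21 FPKM in DKO and 9.73 FPKM in f/f. The part of these markers in the proteoglycan differences was not tested, and in bulk RNA fewer cells of a type and less RNA per cell cannot be told apart.

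Other genes of proteoglycan assembly were described from lists chosen by function. Their counts at day 20 stand beside 10.4% of all genes lower and 8.26% higher in DKO, and the lists are short. Of 16 fibrillar collagen and cross-linking genes, 6 were more than 2-fold lower and 1 was higher in DKO at day 20, with a median of -0.78 log2 units. Col1a1, the main chain of type I collagen, read 921 FPKM in DKO and 6061 FPKM in f/f. Col12a1, a collagen on the fibril surface, read 78.3 FPKM in DKO and 536 FPKM in f/f. Of 20 compared genes that build glycosaminoglycan chains, 5 were lower and none higher, among them Csgalnact1, which starts chondroitin chains, at 1.42 FPKM in DKO and 8.97 FPKM in f/f. None of 6 keratan sulfate genes and none of 3 large proteoglycans passed 2-fold. Of 9 compared proteases that act on these proteins, 3 were lower and 1 was higher: Mmp3 read 0.949 FPKM in DKO and 47.4 FPKM in f/f, and Adamts4 read 30.6 FPKM in DKO and 12.1 FPKM in f/f. Of 16 receptors and ligands, 5 were lower and 4 higher, including Bmp4 at 3.79 FPKM in DKO and 17.8 FPKM in f/f, and Egfr at 101 FPKM in DKO and 26.8 FPKM in f/f.

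The same genotypes were compared in the fibroblasts before the factors. DKO MEF had 3 of the 9 genes more than 2-fold lower and none higher, where 5.17% of all genes were lower and 3.72% higher. Lum read 2.00 FPKM in DKO and 52.7 FPKM in f/f MEF, 26.3-fold lower (22.4 to 31.0). Fmod read 0.932 FPKM in DKO and 10.8 FPKM in f/f, 11.5-fold lower (9.39 to 14.3). Dcn read 2.70 FPKM in DKO and 17.8 FPKM in f/f, 6.58-fold lower (5.68 to 7.66). These 3 genes were the ones already more than 2-fold lower in DKO than in f/f before the factors were given.

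The other 6 genes stayed within 2-fold between DKO and f/f MEF. Bgn read 1512 FPKM in DKO and 1574 FPKM in f/f. Aspn read 69.2 FPKM in DKO and 62.8 FPKM in f/f, a ratio of 1.1 (1.06 to 1.14), and Ogn read 104 FPKM in DKO and 134 FPKM in f/f, a ratio of 0.776 (0.754 to 0.797). Both were therefore among the abundant members in DKO fibroblasts. Prelp read 1.54 FPKM in DKO and 1.97 FPKM in f/f, Podn read 4.02 FPKM in DKO and 3.77 FPKM in f/f, and Omd read 27.1 FPKM in DKO and 31.6 FPKM in f/f. The counting interval of the Podn ratio, 0.932 to 1.22, includes 1.

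Collagen genes did not follow the same direction in DKO MEF: 3 of 16 were lower and 2 higher. Over all genes 5.17% were lower and 3.72% higher. Col1a1 read 356 FPKM in DKO and 1345 FPKM in f/f, and Col12a1 read 569 FPKM in DKO and 98.6 FPKM in f/f. Tll1, a tolloid protease of the kind that cleaves propeptides of some of these proteoglycans, read 0.536 FPKM in DKO and 12.6 FPKM in f/f. Ccn2, a matricellular ligand, read 21.7 FPKM in DKO and 192 FPKM in f/f. None of the 20 compared glycosaminoglycan chain genes passed 2-fold. Fibroblast markers summed to 3101 FPKM in DKO and 3883 FPKM in f/f MEF, and 4 of 11 were more than 2-fold lower in DKO. Osteoblast and cartilage markers (8 genes) summed to 16.9 FPKM in DKO and 50.4 FPKM in f/f MEF, with Col2a1 at 0.692 FPKM in DKO and 20.4 FPKM in f/f. Tenocyte markers (3 genes) summed to 10.5 FPKM in DKO and 26.7 FPKM in f/f, but they did not move together. Scx read 1.24 FPKM in DKO and 18.1 FPKM in f/f, and Tnmd read 0.158 FPKM and 1.83 FPKM. Mkx went the other way, at 9.14 FPKM in DKO and 6.69 FPKM in f/f. The pericyte gene Rgs5 read 0.260 FPKM in DKO and 11.2 FPKM in f/f, while smooth muscle and pericyte markers summed to 2438 FPKM in DKO and 2384 FPKM in f/f. Their part in the lower Lum, Fmod and Dcn was not tested.

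**Figure D2:**
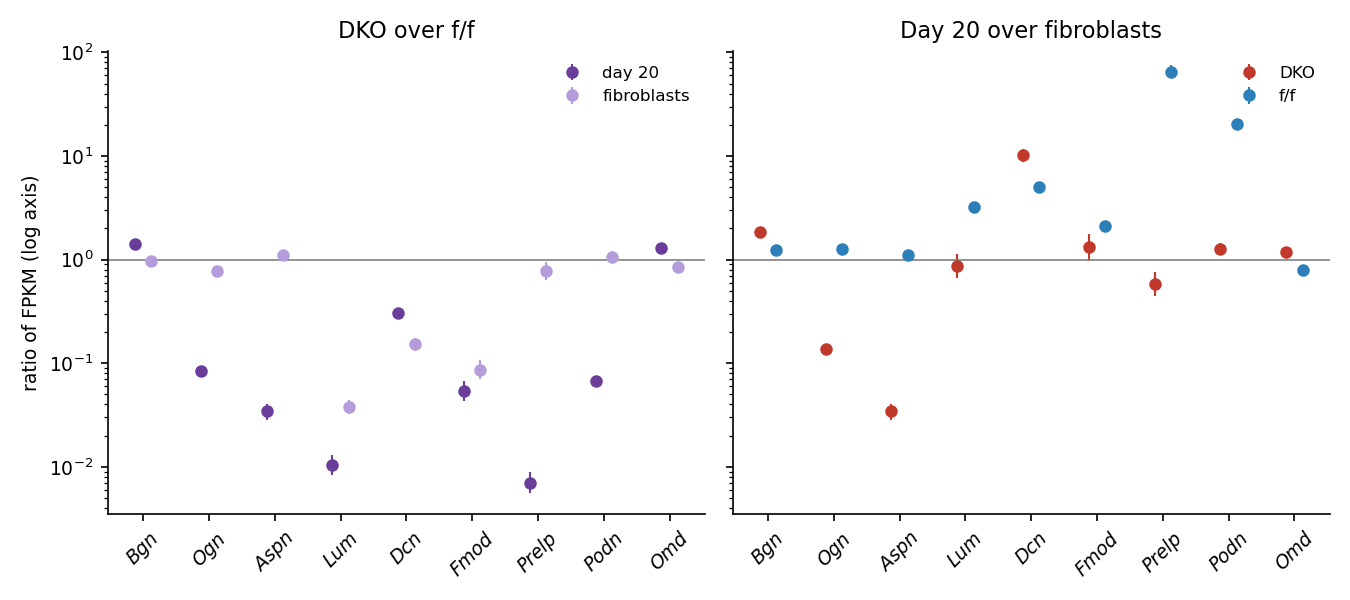
Ratios of FPKM (log axis) per gene with 95% counting intervals: DKO over f/f at day 20 and in fibroblasts on the left, and day 20 over fibroblasts in DKO and f/f on the right. Prelp stands at 64.9 in f/f and 0.586 in DKO for day 20 over fibroblasts, and Aspn at 1.1 in f/f and 0.0342 in DKO.

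The next comparison followed each genotype from fibroblasts to day 20. In DKO cells 1 of the 9 genes was more than 2-fold higher at day 20 than in MEF and 2 were lower, where 4.08% of all genes were higher and 3.63% lower. In f/f cells 5 of the 9 were higher and none lower, where 6.31% were higher and 5.66% lower. The median of the 9 was 0.20 log2 units in DKO, against -0.02 over all genes, and 1.01 in f/f, against -0.01 over all genes. The f/f day-20 library also serves as the control of the genotype comparison at day 20, so the 2 comparisons are not independent.

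Markers of several cell types moved between fibroblasts and day 20. Epithelial markers in DKO summed to 0.273 FPKM at day 20 and 0.584 FPKM in MEF, whereas f/f had 97.2 FPKM at day 20 and 0.494 FPKM in MEF. Fibroblast markers in DKO summed to 9757 FPKM at day 20 and 3101 FPKM in MEF, and in f/f to 13579.8 FPKM at day 20 and 3883 FPKM in MEF. Most of each sum came from Col1a1, Col1a2 and Col3a1. In DKO 4 of the 11 markers were more than 2-fold higher at day 20 and 2 were lower. The lower ones were S100a4 (57.3 FPKM at day 20 and 252 FPKM in MEF) and Prrx1 (30.5 FPKM and 102 FPKM). In f/f 7 were higher and none lower. Smooth muscle and pericyte markers were lower at day 20, with 1264 FPKM against 2438 FPKM in MEF of DKO cells and 406 FPKM against 2384 FPKM in MEF of f/f cells. Pluripotency genes summed to 10.5 FPKM at day 20 and 7.31 FPKM in MEF of DKO cells. In f/f cells they summed to 40.0 FPKM at day 20 and 7.52 FPKM in MEF. Nanog made up most of these sums except in f/f cells at day 20, where Pou5f1 read 19.8 FPKM and Sox2 read 9.36 FPKM. The part of all these markers in the proteoglycan changes was not tested.

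Prelp and Podn were low in both fibroblast libraries and in DKO cells at day 20, and high in f/f cells at day 20. Prelp in DKO had 0.901 FPKM at day 20 and 1.54 FPKM in MEF, whereas f/f had 128 FPKM at day 20 and 1.97 FPKM in MEF, a ratio of 64.9 (56.5 to 74.9). Podn in DKO had 5.08 FPKM at day 20 and 4.02 FPKM in MEF, whereas f/f had 76.1 FPKM at day 20 and 3.77 FPKM in MEF, a ratio of 20.2 (18.2 to 22.4). Among these 4 libraries the f/f cells at day 20 stood apart for both genes, and the other 3 lay between 0.901 and 1.97 FPKM for Prelp and between 3.77 and 5.08 FPKM for Podn.

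Ogn and Aspn showed the reverse arrangement. Aspn in DKO had 2.36 FPKM at day 20 and 69.2 FPKM in MEF, 29.3-fold lower (24.6 to 35.1), whereas f/f had 69.1 FPKM at day 20 and 62.8 FPKM in MEF. Ogn in DKO had 14.4 FPKM at day 20 and 104 FPKM in MEF, 7.26-fold lower (6.77 to 7.79), whereas f/f had 170.2 FPKM at day 20 and 134 FPKM in MEF. Both genes were thus lowest in DKO cells at day 20, and the other 3 libraries lay between 62.8 and 69.2 FPKM for Aspn and between 104 and 170.2 FPKM for Ogn. Cenpp, whose span holds both, read 2.15 FPKM in DKO and 2.28 FPKM in f/f cells at day 20, and 5.75 FPKM in DKO and 7.15 FPKM in f/f MEF, so it did not share that arrangement.

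Lum, Fmod and Dcn began lower in DKO fibroblasts. Lum in DKO had a ratio of day 20 to MEF of 0.874 (0.663 to 1.14), an interval that includes 1, against 3.20 (3.07 to 3.33) in f/f. Fmod had a ratio of 1.31 (0.970 to 1.77) in DKO and 2.11 (1.94 to 2.29) in f/f, the f/f value being just past the 2-fold line at 1.01 log2 units. Dcn was higher at day 20 in both genotypes, with ratios of 10.2 (8.83 to 11.8) in DKO and 5.07 (4.75 to 5.43) in f/f. Dcn was the exception among the 3, since its DKO level at day 20 was above the f/f level in MEF, with 27.5 FPKM against 17.8 FPKM.

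Bgn and Omd varied least. Bgn had a ratio of day 20 to MEF of 1.86 (1.85 to 1.88) in DKO and 1.25 (1.24 to 1.26) in f/f. Omd had a ratio of 1.19 (1.11 to 1.28) in DKO and 0.799 (0.739 to 0.863) in f/f. Neither gene passed 2-fold in any of the 4 comparisons among these libraries.

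Setting the responses side by side, the DKO response minus the f/f response was below -1 log2 units for 5 of the 9 genes, where 7.77% of all genes were that low and 6.32% were that high. Prelp differed by -5.86, Aspn by -4.52, Podn by -3.74, Ogn by -3.11 and Lum by -1.78 log2 units. Fmod differed by -0.81, Dcn by 0.67, Bgn by 0.57 and Omd by 0.56. Collagen and cross-linking genes were higher at day 20 in both genotypes more often than lower. In DKO 5 of 16 were higher and 1 lower, where 4.08% of all genes were higher and 3.63% lower. In f/f 9 of 16 were higher and none lower, where 6.31% were higher and 5.66% lower. Col3a1, a chain of type III collagen, read 3851 FPKM at day 20 and 362 FPKM in MEF of f/f cells. Mmp3, which degrades several proteoglycans, read 47.4 FPKM at day 20 and 0.192 FPKM in MEF of f/f cells.

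The order of the members differed between the 4 libraries. At day 20 in DKO it ran Bgn, Omd, Dcn, Ogn, Podn, Aspn, Lum, Fmod and Prelp, and the counting intervals of each neighbouring pair from Aspn down overlapped. In f/f at day 20 it ran Bgn, Ogn, Lum, Prelp, Dcn, Podn, Aspn, Omd and Fmod, and the intervals of Ogn (167 to 173 FPKM) and Lum (165 to 172 FPKM) overlapped, while those of Omd and Fmod met at 23.8 FPKM. In DKO MEF it ran Bgn, Ogn, Aspn, Omd, Podn, Dcn, Lum, Prelp and Fmod, and in f/f MEF it ran Bgn, Ogn, Aspn, Lum, Omd, Dcn, Fmod, Podn and Prelp. The intervals of Lum and Prelp overlapped in DKO MEF. Bgn led in all 4, and Prelp was last in f/f MEF and in DKO at day 20.

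Of 9 further family genes, 4 were compared (Tsku, Podnl1, Ecm2 and Optc). Between DKO and f/f none of them passed 2-fold on log2(FPKM + 1) at day 20. In MEF, Podnl1 was lower in DKO, at 0.628 FPKM against 3.18 FPKM in f/f. Between day 20 and MEF of f/f cells, Tsku was higher, at 22.6 FPKM against 8.06 FPKM in MEF, and Optc was lower, at 0.521 FPKM against 2.49 FPKM in MEF. None of the 4 passed 2-fold on log2(FPKM + 1) between day 20 and MEF of DKO cells. Optc fell just short at -0.96 log2 units, with 0.289 FPKM at day 20 and 1.5 FPKM in MEF. Podnl1 fell just short at 0.97, with 2.2 FPKM at day 20 and 0.628 FPKM in MEF. The plain FPKM ratios of these low genes were past 2-fold, so the f/f change of Optc is not particular to f/f. Kera, the neighbour of Lum, was listed at 0 in both DKO libraries and read 1.13 FPKM in f/f at day 20 and 0.0355 FPKM in f/f MEF. Tsku read 10.8 FPKM in DKO and 22.6 FPKM in f/f cells at day 20, just short of the line at -0.99 log2 units.

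Similarity of pattern was described over the 8 FPKM libraries, which include replicate 2 of ESC and bodies, with Pearson's r of log2(FPKM + 1). These libraries share the kind of table and fall into few cell types, and many genes reach a high r. Among members, Lum and Fmod had r = 0.987, Prelp and Podn had 0.981, and Ogn and Aspn had 0.972. Of these pairs Ogn and Aspn share a chromosome cluster, while Lum and Fmod or Prelp and Podn lie on different chromosomes. The neighbours Lum and Dcn had r = 0.828. Over 11283 genes, the gene most like Lum and most like Fmod was Islr (0.992 and 0.991), and the gene most like Bgn was Lox (0.994), a collagen cross-linking oxidase, followed by Col1a2 (0.994). Prelp and Podn were both most like Aldh3a1 (0.990 and 0.997), Dcn was most like Tcp11l2 (0.985), Aspn most like Klhdc8a (0.991) and Ogn most like Galnt4 (0.998).

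ESC and embryoid bodies were compared in 2 batches, with replicate 1 given as RPKM per RefSeq transcript and replicate 2 as FPKM per gene. Levels are therefore set against each other within a replicate only. In ESC of replicate 1 Bgn had the highest level of the 9. In ESC of replicate 2 Omd was listed above Bgn, at 185 FPKM and 138 FPKM in DKO and at 150.2 FPKM and 148 FPKM in f/f, and the other 7 genes read 6.51 FPKM or less. Of the 9 genes, 4 passed the filter on low values, a mean level of 1 or more across all 8 libraries (Bgn, Dcn, Omd and Podn). Lum, Ogn, Aspn, Fmod and Prelp did not, and stood at or below 1.57 in each of the 8 libraries.

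**Figure D3:**
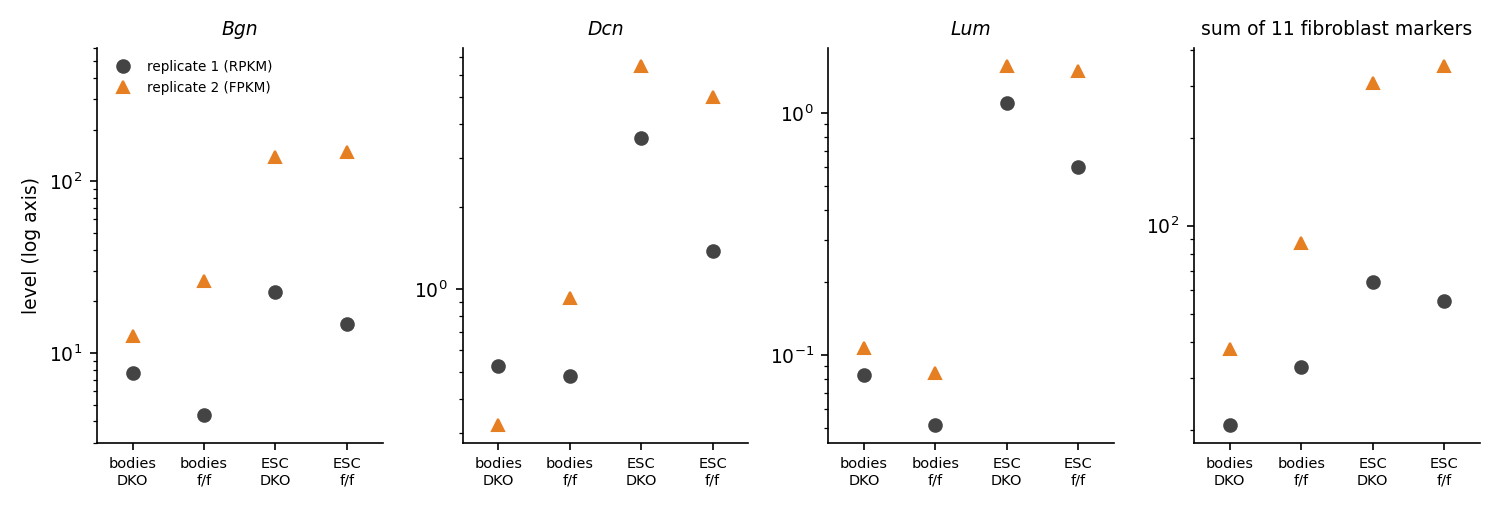
Levels (log axes) of Bgn, Dcn and Lum and the sum of 11 fibroblast markers in embryoid bodies and ESC, DKO left of f/f, as RPKM in replicate 1 and FPKM in replicate 2. Bgn in replicate 2 reads 12.5 FPKM in DKO bodies and 138 FPKM in DKO ESC, and all 4 panels are lower in bodies than in ESC within each replicate and genotype.

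Between genotypes none of the 4 tested members was called in bodies or in ESC by limma at an adjusted p of 0.05, where 4.44% of 12466 genes were called in bodies and 4.24% in ESC. None of the 4 had an unadjusted p below 0.05 in either, and edgeR on reads, which kept 7 members, called none. In bodies, Bgn read 7.67 RPKM in DKO and 4.33 RPKM in f/f of replicate 1, and 12.5 FPKM in DKO and 26.3 FPKM in f/f of replicate 2. The Bgn difference was thus 0.70 in replicate 1 and -1.01 in replicate 2, with a fitted value of -0.15 ± 0.55 log2 units (SE; limma adjusted p = 0.900). In ESC, Dcn read 3.54 RPKM in DKO and 1.38 RPKM in f/f of replicate 1, and 6.51 FPKM in DKO and 5.0 FPKM in f/f of replicate 2. Dcn was higher in DKO in both batches, by a fitted 0.63 ± 0.35 log2 units (SE; limma adjusted p = 0.363). Podn read 0.136 RPKM and 2.36 FPKM in replicates 1 and 2 of DKO bodies, against 0.558 RPKM and 2.82 FPKM in f/f bodies, a difference of -0.32 ± 0.17 (SE; limma adjusted p = 0.336).

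Bodies had less Bgn, Dcn and Lum than ESC in both genotypes and both replicates. The Bgn and Dcn differences did not pass the limma threshold, and Lum was below the filter. In DKO, Bgn read 7.67 RPKM and 12.5 FPKM in replicates 1 and 2 of bodies, against 22.8 RPKM and 138 FPKM in ESC, a difference of -2.41 ± 0.55 log2 units (SE; limma adjusted p = 0.102). In f/f, Bgn read 4.33 RPKM and 26.3 FPKM in bodies, against 14.8 RPKM and 148 FPKM in ESC, a difference of -2.01 ± 0.55 (SE; limma adjusted p = 0.062). Dcn in DKO read 0.527 RPKM and 0.321 FPKM in bodies, against 3.54 RPKM and 6.51 FPKM in ESC, a difference of -2.04 ± 0.35 (SE; limma adjusted p = 0.0663). Dcn in f/f read 0.483 RPKM and 0.929 FPKM in bodies, against 1.38 RPKM and 5.0 FPKM in ESC, a difference of -1.16 ± 0.35 (SE; limma adjusted p = 0.0796). None of 4 members was called in either genotype, where 0.826% of genes were called in DKO and 12.0% in f/f. Both Bgn and Dcn had an unadjusted p below 0.05 in each genotype.

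Other settings put some of these on the far side of the threshold. In f/f, edgeR on the recovered reads called Bgn at -2.31 log2 units (adjusted p = 0.0425) and Lum at -3.92 (adjusted p = 0.0175). These were 2 of 7 members, where 1669 of 15113 genes were called. In DKO, edgeR called Lum at -3.78 (adjusted p = 0.0336), 1 of 7 members, where 147 of 15113 genes were called. With no filter on low values, limma called Lum in f/f at -0.90 (adjusted p = 0.0469) and not in DKO, at -1.08 (adjusted p = 0.114). Without replicate 1 of DKO bodies, limma called Bgn (adjusted p = 0.0145) and Dcn (adjusted p = 0.0433) in f/f, and Bgn at -3.45 in DKO (adjusted p = 0.0267). That last call rests on 1 DKO body library, which is assumed to vary like the libraries of the other groups. Without replicate 2 of DKO bodies it also called Bgn (adjusted p = 0.0149) and Dcn (adjusted p = 0.0435) in f/f. Dcn was not called by edgeR, but its fitted difference was larger than in limma, at -3.39 in DKO (adjusted p = 0.0544) and -2.17 in f/f (adjusted p = 0.0505). With a pseudocount of 0.1, limma gave Dcn -3.26 in DKO (adjusted p = 0.06) and -1.83 in f/f (adjusted p = 0.0754). Adding up the transcripts of a gene in replicate 1 called Dcn at -1.31 in f/f (limma adjusted p = 0.0409) and at -2.18 in DKO (limma adjusted p = 0.0417). Lum had 4 reads and 3 reads in replicates 1 and 2 of DKO bodies, against 45 reads and 70 reads in DKO ESC, and 2 reads in each replicate of f/f bodies, against 23 reads and 67 reads in f/f ESC. Lum was therefore close to the detection limit in all 4 body libraries.

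The sum of the 11 fibroblast markers moved with these values, but not every marker did. Their sum was 20.8 RPKM and 37.7 FPKM in replicates 1 and 2 of DKO bodies, against 64.2 RPKM and 308 FPKM in DKO ESC. In f/f it was 32.9 RPKM and 87.2 FPKM in bodies, against 55.2 RPKM and 353 FPKM in ESC. In each genotype limma called 2 of the 11 lower in bodies and none higher. In replicate 1 of f/f, Pdgfra, Pdgfrb, Fbn1 and Twist2 were higher in bodies than in ESC. Col1a1, Col1a2, Col3a1, Thy1, Postn, Prrx1 and S100a4 were lower, Thy1 only slightly (16.7 RPKM and 17.2 RPKM). None of the 11 was at 0 in any of the 8 libraries, and the labels place ESC on fibroblast feeders. The part of feeder RNA in the Bgn, Dcn and Lum values was not tested. The difference between the body-minus-ESC changes of the 2 genotypes was called for none of the 4 members and 0.0% of genes by limma, for none by edgeR, and 1704 of 12466 genes had an unadjusted p below 0.05 by limma. It was -0.88 ± 0.50 log2 units for Dcn (SE; limma adjusted p = 0.502) and -0.40 ± 0.77 for Bgn (SE; limma adjusted p = 0.869).

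Omd stood apart from the other members in the kind of table. In replicate 1 it read 0.469 RPKM in DKO bodies, 0.459 RPKM in f/f bodies, 0.954 RPKM in DKO ESC and 0.589 RPKM in f/f ESC. In replicate 2 it read 297 FPKM in DKO bodies, 366 FPKM in f/f bodies, 185 FPKM in DKO ESC and 150.2 FPKM in f/f ESC. The mean FPKM was 404 times the mean RPKM, a ratio reached by 64 of 12208 genes (0.524%). The ratios of the other 8 members lay between 1.32 for Aspn and 9.97 for Prelp, against a median of 1.02 over 11479 genes. Some of these were high as well. The ratio of Prelp was reached by 4.13% of the 12208 genes, that of Podn (9.0) by 4.36%, Bgn (6.54) by 5.16% and Fmod (4.74) by 6.22%. The transcript length of 1751 bases behind the RPKM gave whole reads of Omd in the MEF and day-20 libraries. At that length f/f ESC had 5673 reads in replicate 2, against 19 counted reads in replicate 1. The Omd values of replicate 2 were too high for the check of whole reads. Efcc1, the gene with the most similar pattern (r = 0.999), had a ratio of 2307 between the tables, and the following 2, Synrg and Mfsd11, had 29.4 and 39.4. The cause of the discrepancy was not tested, and FPKM values of Omd, including those of MEF and day-20 cells, are reported as listed.

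**Figure D4:**
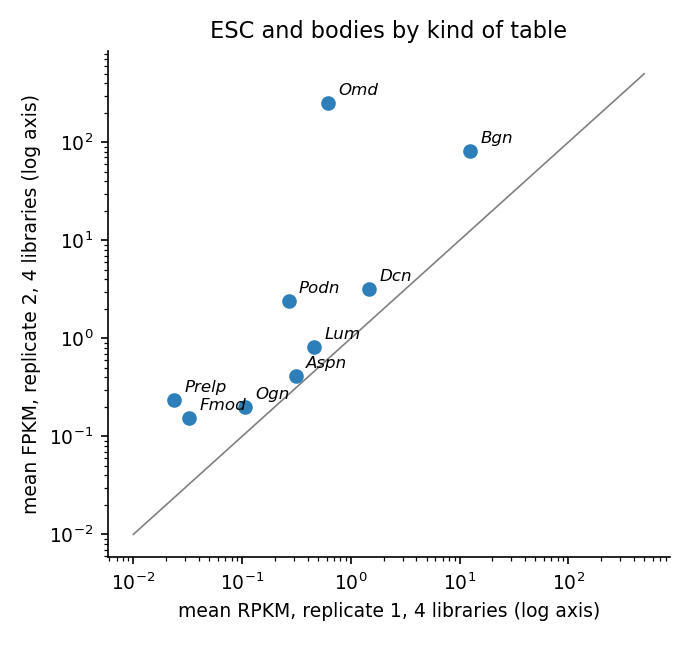
Mean FPKM of replicate 2 against mean RPKM of replicate 1 for the 9 genes over the 4 ESC and body groups (log axes; grey line, equal values). Omd lies farthest from the line with 249 FPKM against 0.618 RPKM, and Bgn reads 81.2 FPKM against 12.4 RPKM.

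Fibroblasts were finally set against ESC of replicate 2, which share the kind of table. The labels place ESC on fibroblast feeders, and fibroblast markers in these ESC summed to 308 FPKM in DKO and 353 FPKM in f/f. The part of feeder RNA in the ESC values, including Dcn, was not tested. DKO MEF had 4 of the 9 genes more than 2-fold higher than DKO ESC and 2 lower, where 16.0% of 12970 genes were higher and 18.8% lower. In f/f, 6 of the 9 were higher and 1 lower in MEF than in ESC, where 18.4% were higher and 21.9% lower. Ogn had the highest ratio in both, at 248 in DKO (104 FPKM in MEF and 0.421 FPKM in ESC) and 526 in f/f (134 FPKM in MEF and 0.255 FPKM in ESC). Aspn followed with ratios of 81.4 in DKO and 86.1 in f/f, and Bgn had ratios of 10.9 in DKO and 10.7 in f/f. Prelp was just past the 2-fold line in DKO at 1.06 log2 units (1.54 FPKM in MEF and 0.219 FPKM in ESC). In f/f it was not past it, at 0.84. Lum had a ratio of 1.28 in DKO (2.00 FPKM in MEF and 1.57 FPKM in ESC) and 35.2 in f/f (52.7 FPKM in MEF and 1.5 FPKM in ESC). Dcn was 2.41-fold lower in DKO MEF than in DKO ESC (2.70 FPKM and 6.51 FPKM), whereas its ratio in f/f was 3.55 (17.8 FPKM and 5.0 FPKM). The Dcn difference in DKO was just past the 2-fold line at -1.02 log2 units, and with median-of-ratios scaling it was -0.94 and no longer past it. Omd, whose FPKM is in doubt, was the other lower gene in DKO (27.1 FPKM in MEF and 185 FPKM in ESC). It was also the only lower gene in f/f (31.6 FPKM in MEF and 150.2 FPKM in ESC).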

How the data were processed

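Messenger RNA of 12 libraries was used. For replicate 1 of ESC and bodies the authors deposited read counts and RPKM for each RefSeq transcript. For replicate 2 and for the MEF and day-20 libraries the authors deposited FPKM for each Entrez gene, as their headers show. According to the submitters' processing notes, the build was mm9, with bedtools 2.16 and SICER 1.1 for some libraries and CASAVA 1.8.2 for others. Aligner, annotation and strand setting: not given in the sources used here. Transcripts were joined to genes by accession (28436 of 29082 matched), and a gene took the values of its transcript with the highest read count. Depth was recovered from the steps of low values, of which 90.2% to 92.1% per library were whole reads within 0.02. The lower values of the 9 genes gave whole reads, and high values were not checked. For Dcn and Podn the length was itself picked to give whole reads.

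ESC and bodies were tested with limma 3.58.1 (R 4.3.3, two-sided) on log2(value + 1) with group and replicate as terms, over 12466 genes with a mean of at least 1, Benjamini-Hochberg adjusted over all of them with a threshold of 0.05. The replicate number marks the kind of table, and libraries of the same number deviated together from their group means (correlations of 0.864 to 0.954), so it entered as a block. edgeR 4.0.16 on reads was an alternative, and the scripts were tested on simulated data. Fold changes on this scale understate changes of low genes. No label ties the replicates to separate cultures, and p-values then reflect no more than the spread among these libraries, possibly a technical one. With 1 library a group (fibroblasts, day 20) no test was made: genes past 2-fold on log2(FPKM + 1) were counted, and exact 95% Poisson or binomial intervals cover counting error only. Named genes were the 9 members, up to 4 genes a list and, for each member, the 3 genes most like it. Members and gene lists were chosen with earlier results of these data known. Promoter sequences came from RefSeq (GRCm38.p6); no coordinates were carried between builds.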

Additional observations from a re-analysis of the deposited data

Results flagged for a closer look

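In 5 of the 9 genes the change between fibroblasts and day 20 had opposite signs in DKO and f/f cells. Each group had 1 library, and the difference was not tested. The share of all genes with opposite signs was not counted, so whether 5 of 9 is unusual was not tested. The DKO response minus the f/f response was -5.86 log2 units for Prelp, -4.52 for Aspn, -3.11 for Ogn, -1.78 for Lum and 0.56 for Omd. For Lum the DKO change of -0.13 is within its counting interval, so its sign is not settled by these reads. The Aspn change in f/f was small, at 0.13 log2 units. Omd, whose FPKM is in doubt, changed by 0.24 in DKO and -0.31 in f/f.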

How the results depend on the processing

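DKO against f/f in ESC called 529 genes, 207 with no filter and 0 without the replicate block; leaving out a library gave 0 to 743. In bodies it called 553, 289 with no filter, 327 with a mean of at least 5 and 2 without the block (0 to 799 leaving out a library). Bodies against ESC called 1495 genes in f/f, 990 with a mean of at least 5 and 0 without the block (0 to 1886), and 103 in DKO, 1 with no filter and 1 without the block (0 to 111). Members called in bodies against ESC were 0, but in f/f 1 with no filter (Lum), 1 with summed transcripts and 2 with edgeR (0 to 2 leaving out a library; 2, Bgn and Dcn, without replicate 1 or replicate 2 of DKO bodies), and in DKO 1 with summed transcripts and 1 with edgeR (0 to 1; Bgn at -3.45 without replicate 1 of DKO bodies). For bodies against ESC, edgeR called 1669 of 15113 genes in f/f and 147 in DKO. Some uncalled members changed sign. For DKO against f/f in bodies, Bgn was 0.06 with edgeR. For bodies against ESC in DKO, Omd was -0.10 with a pseudocount of 0.1. Leaving out a library in turn, DKO against f/f spanned -0.44 to 0.94 for Bgn and -0.12 to 0.71 for Omd in ESC, and -1.19 to 0.88 for Bgn, -0.76 to 0.26 for Dcn and -0.66 to 0.37 for Omd in bodies. Bodies against ESC in DKO spanned -0.28 to 0.55 for Omd and -0.13 to 0.03 for Podn, and the interaction -1.44 to 0.63 for Bgn and -0.96 to 0.08 for Omd. With a mean of at least 5, genes past 2-fold were 680 in place of 1092 (DKO against f/f, MEF), 1506 in place of 2298 (day 20), 622 in place of 947 (DKO, day 20 against MEF; 1506 with a pseudocount of 0.1), 933 in place of 1470 (f/f) and 1072 in place of 1730 (responses). With median-of-ratios scaling 1 member (Omd) in place of 2 was lower in DKO MEF than in DKO ESC, Dcn no longer passing. The median of all genes lay at -0.12 in f/f and -0.10 in DKO for MEF minus ESC, and changes there are read beside it. Causes were not tested.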
